A study of Mus musculus with 6 samples.

Results

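The 10 genes described here encode the enzymes that hydroxylate and cross-link collagen: the lysyl oxidases Lox, Loxl1, Loxl2, Loxl3 and Loxl4, the lysyl hydroxylases Plod1, Plod2 and Plod3, and the prolyl 4-hydroxylase alpha subunits P4ha1 and P4ha2. They were taken by symbol from a table of 52636 genes, and each symbol matched 1 row. The family was chosen by its log2 differences between the groups, so the members' values are a description and carry no test. There were 3 libraries of the group M1E5 Zfx F5 and 3 of the group M1E5 WT. Both are untreated MC-38 cells, a mouse colon tumour line grown in serum-containing medium, and the name M1E5, which both genotypes carry, is not explained in the labels. In Zfx F5, which the series title counts among knockout clones, the transcription factor gene Zfx was targeted by lipid transfection of CRISPR ribonucleoprotein, with the deletion checked by PCR per the design text. All 3 Zfx F5 libraries carry this 1 genotype label, so differences between clones and effects of the edit cannot be told apart. The design text describes cultured cells, while the extraction protocol mentions sorted tumour cells.

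Collagen is modified in steps. In the endoplasmic reticulum, prolyl 4-hydroxylases convert prolines of the nascent chains to hydroxyproline, which stabilises the triple helix, and lysyl hydroxylases convert lysines to hydroxylysine, which can carry sugars and makes more stable cross-links. Outside the cell, the copper-dependent lysyl oxidases oxidise lysines and hydroxylysines of collagen and lysines of elastin to aldehydes that then form cross-links. Stiff, cross-linked matrix and raised Lox, Loxl2 or Plod2 are well known from solid tumours, where stromal and tumour cells both make these enzymes.

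Reads recovered from the values numbered 18876673 to 24241864 per library. Zfx itself measured 125, 129 and 122 CPM (reads scaled to a library total of 1000000) in the libraries labelled Zfx F5, against 64.4, 69.7 and 68.9 CPM in WT. The log2 difference was 0.89 (SE 0.042), with a limma adjusted p of 3.47e-18. The mRNA was thus higher, not lower, under the edited label, and where in the gene the edit lies is not given, so counts over the whole gene cannot check it. Of the 12279 genes kept for testing (mean log2 value 0 or above), limma called 72.9% different at an adjusted p under 0.05, with 37.0% higher and 35.9% lower in Zfx F5, and the median log2 difference was 0.02. The labels do not state whether a group's libraries are separate cultures, so spreads and p-values may be technical. Of 10 colon epithelial markers, 8 had at most 3 reads in every library, among them Epcam, Krt18, Krt19 and Cdx2. The 10 summed to 3.95 to 4.13 CPM in the libraries labelled Zfx F5 and 0.636 to 1.07 CPM in WT. Krt8, below the filter, had 39, 34 and 41 reads in Zfx F5 and 0 in each WT library. Cdh1, the only one kept, was higher (2.10 CPM in Zfx F5, 0.848 CPM in WT, limma adjusted p = 2.83e-05). Fibroblast markers, 4 of 8 kept, summed to 159.9 to 163 CPM in the libraries labelled Zfx F5 and 390.3 to 400.1 CPM in WT, with Thy1 and Lum at no more than 3 reads throughout. They moved both ways in limma: Pdgfra (78.6 CPM in Zfx F5, 247 CPM in WT) and Dcn (33.9 CPM in Zfx F5, 120.0 CPM in WT) fell, while Pdgfrb (43.6 CPM in Zfx F5, 26.1 CPM in WT) and Pi16 (3.93 CPM in Zfx F5, 0.503 CPM in WT) rose. The 6 myeloid markers, 3 of them kept, summed to 25.5 to 27.8 CPM in Zfx F5 and 11.0 to 13.6 CPM in WT, with Ptprc, Adgre1 and Csf1r at no more than 3 reads. Only Lyz2 of the kept 3 passed the test (15.3 CPM in Zfx F5, 0.437 CPM in WT), and without it the sums overlapped, at 11.1 to 12.4 CPM in Zfx F5 and 10.4 to 13.1 CPM in WT. The 5 endothelial markers, 2 of them kept, summed to 33.9 to 39.0 CPM in Zfx F5 and 12.8 to 13.7 CPM in WT, with Kdr and Tie1 at no more than 3 reads. Both kept ones passed the test and were higher in Zfx F5. Pecam1 stood at 26.1 CPM in Zfx F5 and 8.79 CPM in WT, and Egfl7 at 9.70 CPM in Zfx F5 and 4.35 CPM in WT. The part of other cell types in the differences below was not tested, and in bulk RNA a change in the number of cells of a type and one in RNA per cell cannot be told apart.

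Across the 10 genes, all 3 Zfx F5 libraries lay above all 3 WT libraries for 7, below them for 1 and among them for 2. Of the 8 members kept by the filter, 7 had groups that did not overlap, where the share was 74.3% over all kept genes, 37.8% higher and 36.5% lower in Zfx F5. The 7 higher genes were 3 of the 5 lysyl oxidases, all 3 lysyl hydroxylases and 1 of the 2 prolyl 4-hydroxylase subunits. They include Loxl1, which is below the filter, and both prolyl 4-hydroxylase subunits were nearly level. Sizes differed widely among the kept genes, from 17.9-fold for Lox to 1.06-fold for P4ha1. Lox, Loxl3 and Plod1 differed by at least 2-fold, a size at which limma called 10.1% of all kept genes.

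**Figure D1:**
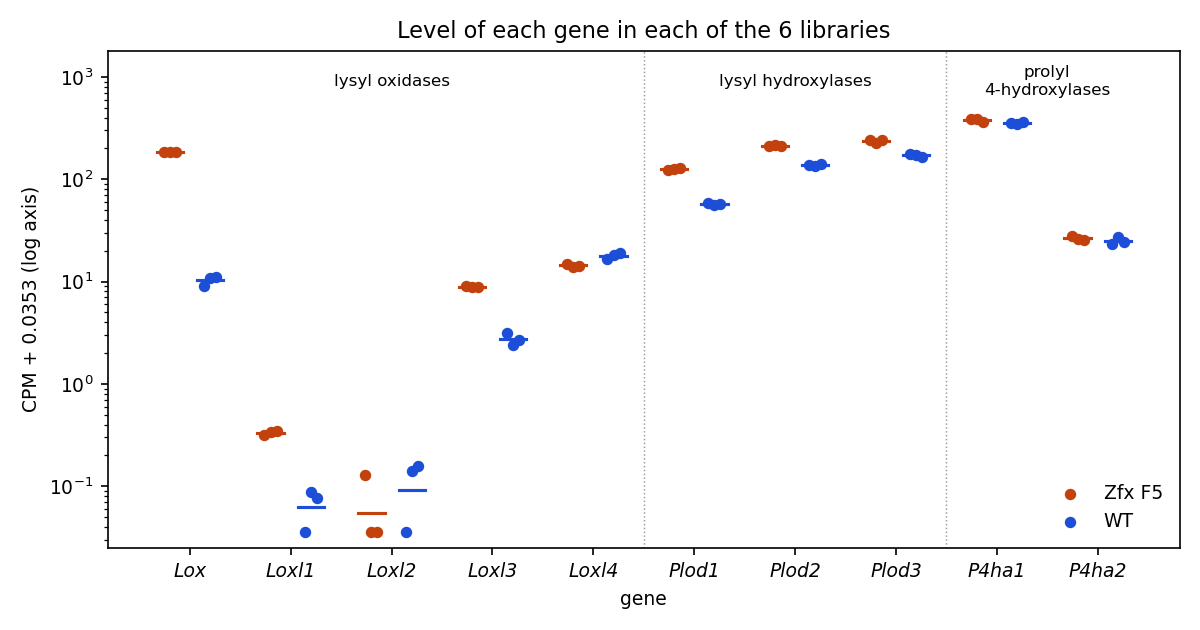
CPM plus the authors' offset of 0.0353 on a log axis for each of the 10 genes, with 3 Zfx F5 libraries (left, orange) and 3 WT libraries (right, blue) per gene and a line at the mean of the log values. Lox stands near 184 CPM in Zfx F5 and near 10.3 CPM in WT, whereas P4ha1 and P4ha2 sit at similar heights in both groups.

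Lox, the founding lysyl oxidase, whose secreted proenzyme is cut to the active form outside the cell, is on the minus strand of chromosome 18. It measured 185.6, 183.6 and 184.1 CPM in the libraries labelled Zfx F5, against 9.03, 10.8 and 11.1 CPM in WT. The 3 Zfx F5 values lay within a few CPM of each other and far above every WT value. The log2 difference was 4.16 (SE 0.062), or 17.9-fold, and 13 of the 12279 kept genes had a larger positive one. Between 204 and 4187 reads per library stood behind these values. No stretch of 50 bases, the read length in the labels, was shared between the annotated Lox transcripts and those of any other gene. An antisense gene with no row in the table overlaps the Lox gene by 1207 bases, of which 30 lie in exons of both, fewer than 1 read length.

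Loxl3, a lysyl oxidase with scavenger receptor domains (plus strand, mm10 chromosome 6 from 83034173 to 83052562), was low but followed Lox in direction. Its values were 8.97, 8.76 and 8.79 CPM in the libraries labelled Zfx F5 and 3.12, 2.38 and 2.64 CPM in WT. The groups were well apart, with a log2 difference of 1.70 (SE 0.131), or 3.24-fold, from 45 to 200 reads per library. The neighbouring protease gene Htra2 overlaps Loxl3 on the other strand and shares 8.54% of its stretches of 50 bases. Htra2 rose as well, by less than Loxl3 on the log2 scale and by more in CPM. It stood at 77.9 ± 3.2 CPM in the libraries labelled Zfx F5 against 65.9 ± 2.6 CPM in WT (SD, n = 3 each, log2 difference 0.24, SE 0.045, limma adjusted p = 2.10e-05).

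Loxl4, another member with scavenger receptor domains (minus strand, mm10 chromosome 19 from 42593982 to 42612813), was the only one of the 10 with every Zfx F5 library below every WT library. It stood at 14.9, 13.9 and 14.3 CPM in the libraries labelled Zfx F5, against 16.7, 18.0 and 19.1 CPM in WT. The gap between the highest Zfx F5 and the lowest WT library was smaller than the range within WT. The log2 difference was -0.32 (SE 0.077), or 1.25-fold lower.

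The other two lysyl oxidase genes were close to silent. Loxl1, best known for elastic fibre assembly (minus strand, mm10 chromosome 9 from 58287738 to 58313186), had 6, 6 and 7 reads in the libraries labelled Zfx F5 and 0, 1 and 1 in WT. The ratio of pooled CPM was 9.92, with an exact Clopper-Pearson 95% interval of 2.39 to 87.8 that covers counting error only. Loxl2, a collagen IV cross-linking enzyme often raised in carcinomas (plus strand, mm10 chromosome 14 from 69609068 to 69695834), had 2, 0 and 0 reads in the libraries labelled Zfx F5 and 0, 2 and 3 in WT. No direction can be read from so few reads. Of the 50-base stretches of Loxl2, 45.0% also occur in other genes, most of them in the pseudogene Gm21451, which had 0 reads in all 6 libraries. The 55.0% that are its own still left Loxl2 at 3 reads or fewer in any library. In the libraries where Loxl2 had 0 reads, that count allows up to 0.128 to 0.152 CPM.

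Per kilobase of exon, which lets genes be compared with each other, the summed lysyl oxidase level was 44.4 ± 0.39 CPM per kb in the libraries labelled Zfx F5 and 7.62 ± 0.49 CPM per kb in WT (SD, n = 3 each), 5.83 times as much. The make-up of the family differed too. Lox supplied 86.0%, 86.5% and 86.3% of the sum in the 3 libraries labelled Zfx F5, against 26.4%, 29.3% and 28.5% in WT. Loxl4 supplied 8.63 ± 0.23% in Zfx F5 and 62.8 ± 0.2% in WT (SD, n = 3 each). The per-kb ratio of Lox to Loxl4 was 10.0 ± 0.29 in Zfx F5 and 0.447 ± 0.024 in WT, so the first lysyl oxidase by level was Lox in each library labelled Zfx F5 and Loxl4 in each WT library. Loxl3 gave 4.85 ± 0.02% in Zfx F5 and 8.77 ± 1.72% in WT, although its own level was higher in Zfx F5.

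**Figure D2:**
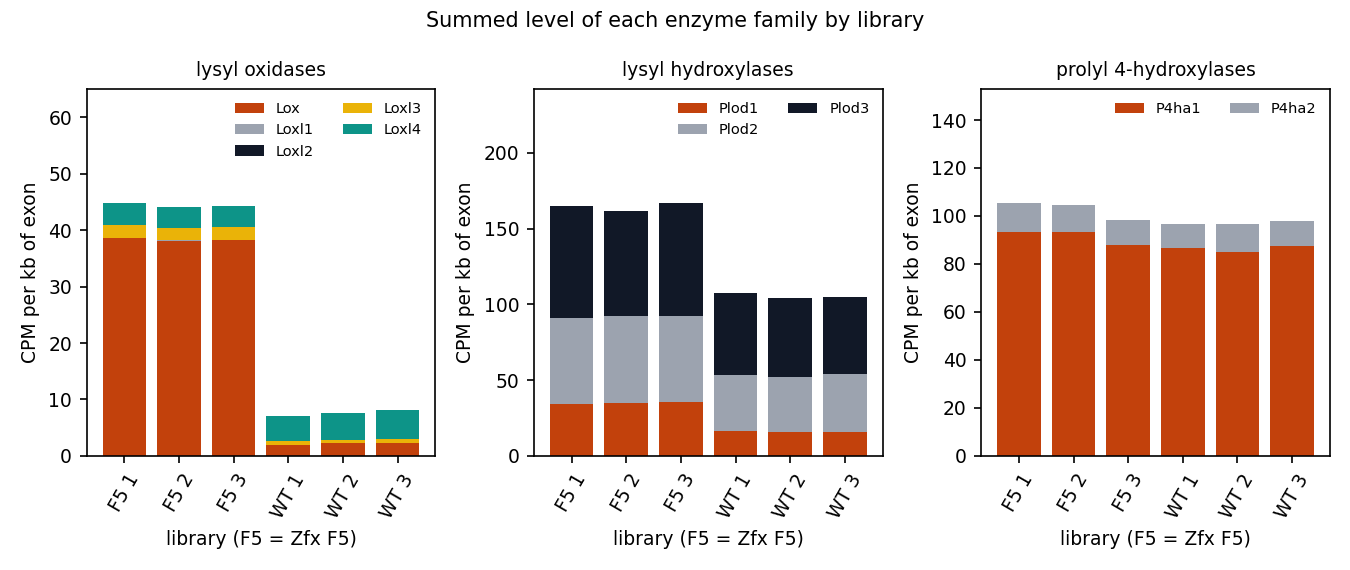
Stacked bars of CPM per kb of exon for the genes of each enzyme family in 3 Zfx F5 libraries (left) and 3 WT libraries (right), 1 panel per family. The lysyl oxidase sum is 44.4 in Zfx F5 and 7.62 in WT and is mostly Lox in Zfx F5 and mostly Loxl4 in WT, while the prolyl 4-hydroxylase bars are nearly equal.

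All 3 lysyl hydroxylases were higher in Zfx F5, with the size of the difference in the order Plod1, Plod2, Plod3. Plod1, which hydroxylates lysines of the helical part of collagen, is on the minus strand of mm10 chromosome 4 from 147909753 to 147936767. It measured 124, 125 and 129 CPM in the libraries labelled Zfx F5 and 58.5, 56.5 and 57.1 CPM in WT. Every Zfx F5 value was more than 2 times every WT value, and the log2 difference was 1.14 (SE 0.041), or 2.20-fold. Plod2, which hydroxylates the telopeptide lysines from which the stable cross-links of fibrotic tissue form (plus strand, mm10 chromosome 9 from 92542223 to 92608428), measured 209.7, 214 and 210.4 CPM in Zfx F5 and 137, 134 and 142 CPM in WT. Its groups were apart as well, by a log2 difference of 0.62 (SE 0.035), or 1.54-fold. Plod3, which also adds sugars to hydroxylysine (plus strand, mm10 chromosome 5 from 136987019 to 136996648), measured 243, 228 and 244 CPM in Zfx F5 and 178, 171 and 167 CPM in WT. This was the smallest of the 3 differences, with a log2 difference of 0.47 (SE 0.036), or 1.39-fold, and again the groups did not overlap.

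The summed lysyl hydroxylase level was 164.6 ± 2.6 CPM per kb in Zfx F5 and 105.3 ± 1.8 CPM per kb in WT (SD, n = 3 each). Its split moved less than that of the oxidases. Plod1 supplied 21.2 ± 0.3% of the sum in Zfx F5 and 15.1 ± 0.009% in WT, and Plod3 supplied 44.1 ± 1.0% in Zfx F5 and 49.7 ± 1.1% in WT. The Plod2 shares of 34.6 ± 0.9% in Zfx F5 and 35.2 ± 1.1% in WT overlapped. The order by level per kb was Plod3, Plod2, Plod1 in every library. Plod3 shares 9.81% of its 50-base stretches with other genes, mainly Znhit1 on the other strand, which did not pass the test (42.1 ± 1.3 CPM in Zfx F5 and 41.9 ± 1.7 CPM in WT, SD, n = 3 each, limma adjusted p = 0.928). Plod2 shares 5.51% with Gm38391, a gene model on its other strand that had 92 reads over the Zfx F5 libraries and 44 over WT.

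The prolyl 4-hydroxylase subunits stood nearly level. P4ha1, the main catalytic subunit in most cells (plus strand, mm10 chromosome 10 from 59323296 to 59373304), measured 384.6, 384.6 and 360.9 CPM in the libraries labelled Zfx F5 and 356.9, 350.0 and 360.3 CPM in WT. The lowest Zfx F5 library exceeded the highest WT library by under 1 CPM, and the log2 difference was 0.08 (SE 0.032), or 1.06-fold. P4ha2, an alternative subunit that forms the same kind of tetramer with P4hb (plus strand, mm10 chromosome 11 from 54100095 to 54131665), measured 28.0, 26.1 and 25.2 CPM in Zfx F5 and 23.1, 26.9 and 24.5 CPM in WT. Its groups overlapped, and its log2 difference of 0.09 (SE 0.067) was of the size of its error. P4ha1 supplied 89.0 ± 0.3% of the summed level per kb in Zfx F5 and 89.1 ± 0.9% in WT (SD, n = 3 each). The third alpha subunit gene, P4ha3, had 26 reads over the Zfx F5 libraries and 32 over WT, and P4hb, the beta subunit also known as protein disulfide isomerase, did not pass the test (1667 ± 19 CPM in Zfx F5 and 1645 ± 22 CPM in WT, SD, n = 3 each, limma adjusted p = 0.504).

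Within a group the genes kept a clear order of level per kb. In the libraries labelled Zfx F5 it ran P4ha1 (91.6 ± 3.3 CPM per kb), Plod3 (72.7 ± 2.7), Plod2 (57.0 ± 0.6), Lox (38.3 ± 0.2), Plod1 (34.9 ± 0.7), P4ha2 (11.3 ± 0.6), Loxl4 (3.83 ± 0.13), Loxl3 (2.16 ± 0.03), Loxl1 and Loxl2, each SD with n = 3. In WT it was P4ha1 (86.5 ± 1.3 CPM per kb), Plod3 (52.4 ± 1.8), Plod2 (37.0 ± 1.0), Plod1 (15.9 ± 0.3), P4ha2 (10.6 ± 0.8), Loxl4 (4.79 ± 0.32), Lox (2.14 ± 0.23), Loxl3 (0.663 ± 0.092), Loxl2 and Loxl1. Neighbours in each order did not overlap between libraries, except Loxl2 and Loxl1 in WT. Lox held place 4 in Zfx F5 and place 7 in WT.

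**Figure D3:**
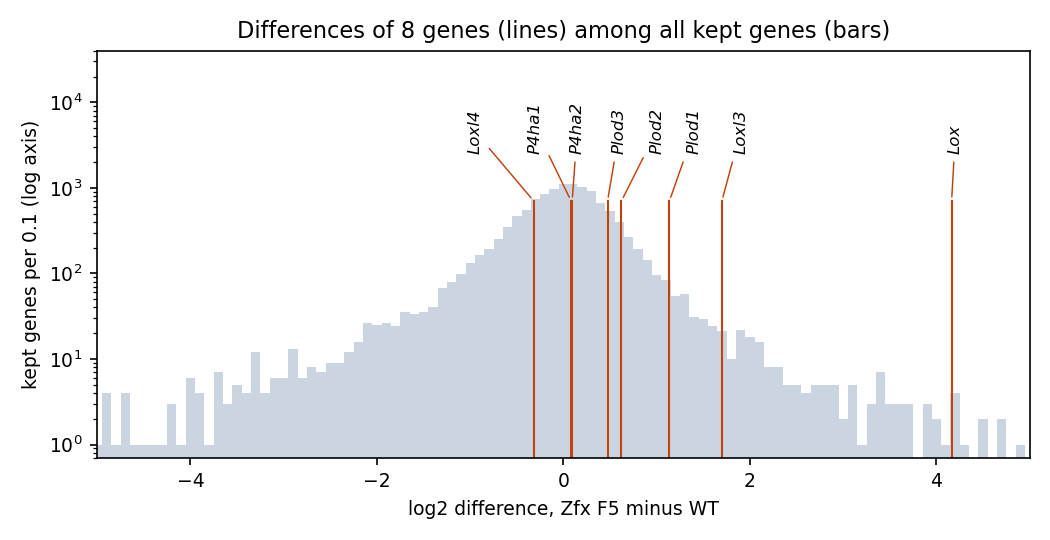
Histogram of log2 differences (Zfx F5 minus WT) of all 12279 kept genes in bins of 0.1 on a log count axis, drawn from -5 to 5 with 25 genes outside, and vertical lines for the 8 kept members. Lox at 4.16 lies far out in the right tail, Loxl3 and Plod1 at 1.70 and 1.14 lie on its shoulder, and P4ha1 and P4ha2 lie at the peak.

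Promoter windows from 250 bases before to 50 after the start were matched for 5 of the 10 genes (RefSeq, GRCm38.p6): Loxl4, Plod1, Plod3, P4ha1 and P4ha2. The windows of Plod1, the hydroxylase gene with the largest difference, and of P4ha1 and P4ha2, which were nearly level, are shown because they differ in the motifs searched. Capitals mark AGGCCT, the core of the binding motif reported for Zfx, and ACGTG or its reverse complement CACGT, the core of the hypoxia response element. They lie at chr4:147936727-147937026 (minus strand), chr10:59323046-59323345 (plus strand) and chr11:54100674-54100973 (plus strand).
Plod1: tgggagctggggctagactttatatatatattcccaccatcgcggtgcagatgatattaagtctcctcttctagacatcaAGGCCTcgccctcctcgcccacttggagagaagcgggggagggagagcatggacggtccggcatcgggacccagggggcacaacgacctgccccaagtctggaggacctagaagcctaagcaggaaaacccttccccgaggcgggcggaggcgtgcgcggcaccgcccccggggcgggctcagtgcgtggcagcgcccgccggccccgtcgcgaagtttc
P4ha1: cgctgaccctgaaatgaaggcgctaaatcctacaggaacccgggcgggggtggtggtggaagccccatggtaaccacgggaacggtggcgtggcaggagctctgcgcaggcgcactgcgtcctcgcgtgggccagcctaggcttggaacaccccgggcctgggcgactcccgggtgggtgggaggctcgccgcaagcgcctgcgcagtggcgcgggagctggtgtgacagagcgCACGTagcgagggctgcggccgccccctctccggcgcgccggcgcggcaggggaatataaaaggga
P4ha2: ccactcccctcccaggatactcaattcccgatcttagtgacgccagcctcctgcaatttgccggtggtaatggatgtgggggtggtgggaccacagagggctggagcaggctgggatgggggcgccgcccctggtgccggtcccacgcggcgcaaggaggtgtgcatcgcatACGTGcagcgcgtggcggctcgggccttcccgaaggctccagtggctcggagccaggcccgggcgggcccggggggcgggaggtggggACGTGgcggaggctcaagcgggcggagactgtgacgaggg
Both strands were searched for AGGCCT and ACGTG, and no member's window held both of these. The starts are RefSeq's and can differ from the gene bounds given above. AGGCCT, its own reverse complement, was found in 1 of the 5 windows, that of Plod1, 170 bases before the start, and in 10.3% of 32851 RefSeq windows of the same length. ACGTG or CACGT was found in 3 of the 5, in P4ha1 16 bases before the start, in P4ha2 78 bases before and 11 bases after it, and in Plod3 54 bases before it, and in 19.6% of all windows. These are matches of letters and say nothing of binding. Plod3, whose window is not shown, held ACGTG and was 1.39-fold higher in Zfx F5, so ACGTG was not confined to the nearly level genes. The windows shown were picked with the members' differences known.

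The hypoxia pathway is a known inducer of Lox, Plod2, P4ha1 and P4ha2. Its part in the members' differences was not tested. Targets of the pathway outside the members moved both ways. Of 22 kept targets outside the members, 8 rose, 8 fell and 6 did not pass in limma, with a median log2 difference of -0.02, beside 37.0% higher, 35.9% lower and a median of 0.02 for all kept genes. The glycolysis regulator gene Pfkfb3 fell to 29.5 CPM in Zfx F5 against 55.2 CPM in WT (log2 difference -0.90, SE 0.054, limma adjusted p = 1.28e-15). Pdk1, a pyruvate dehydrogenase kinase gene, fell by 0.77 on the log2 scale (SE 0.044), while the mitophagy gene Bnip3l and Ankrd37 rose by 0.86 (SE 0.057) and 0.90 (SE 0.223). For the oxygen-sensing factor Hif1a the values were 167 CPM in Zfx F5 and 171 CPM in WT (limma adjusted p = 0.411), and Epas1 had 0 reads in all libraries. Of 3 kept genes in this group, Arnt and Vhl fell, by 0.20 (SE 0.035) and 0.37 (SE 0.060) on the log2 scale.

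Among 9 other kept protein hydroxylases that use 2-oxoglutarate like the collagen enzymes, 6 rose, 2 fell and 1 did not pass (median log2 difference 0.30). The shares over all kept genes were 37.0% higher and 35.9% lower. Both listed genes that fell encode oxygen-sensing HIF prolyl hydroxylases. Egln1 stood at 50.8 ± 1.3 CPM in Zfx F5 and 97.5 ± 1.8 CPM in WT (log2 difference -0.94, SE 0.043, limma adjusted p = 1.89e-18), and Egln3 at 9.45 ± 0.78 CPM in Zfx F5 and 21.1 ± 1.6 CPM in WT (-1.16, SE 0.085), SD with n = 3 each. The third, Egln2, rose by 0.41 (SE 0.055). The largest rises were those of the oxygenase genes Riox2 and Ogfod1, by 0.46 (SE 0.043) and 0.45 (SE 0.042).

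Lysyl oxidases need copper, and the collagen hydroxylases need iron and ascorbate. Of 10 kept genes for their supply, 3 rose, 4 fell and 3 did not pass (median log2 difference -0.05). Among all kept genes, 37.0% were higher and 35.9% lower in Zfx F5. Slc31a2, a copper transporter gene related to the importer gene Slc31a1, fell to 8.75 CPM in Zfx F5 against 19.9 CPM in WT (log2 difference -1.18, SE 0.080, limma adjusted p = 3.23e-14). Slc31a1 differed by 0.12 (SE 0.040, limma adjusted p = 0.00729) with overlapping groups, and without Zfx F5 library 2 or WT library 2 the adjusted p was 0.0656 or 0.0628. Atp7a, which loads copper onto secreted enzymes such as Lox, differed by -0.16 (SE 0.068, limma adjusted p = 0.0385), again with overlapping groups, and did not pass without Zfx F5 library 1 or 2 or WT library 2 or 3 (adjusted p 0.0779 to 0.212). Ccs, the chaperone that brings copper to superoxide dismutase, fell by 0.64 (SE 0.079), and the metalloreductase genes Steap1 and Steap3 rose by 0.31 (SE 0.037) and 0.27 (SE 0.039).

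Partners of the hydroxylases in the endoplasmic reticulum moved in both directions. Of 12 kept, 7 rose, 3 fell and 2 did not pass, beside 37.0% higher and 35.9% lower over all kept genes. The median log2 difference of the 12 was 0.14. P3h2, a prolyl 3-hydroxylase best known for basement membrane collagen, had the largest change. It stood at 67.6, 72.0 and 72.7 CPM in the libraries labelled Zfx F5 and at 16.3, 15.6 and 17.9 CPM in WT, which gave a log2 difference of 2.09 (SE 0.060) and a limma adjusted p of 9.04e-24. P3h1 did not pass (0.03, SE 0.046, limma adjusted p = 0.621), and its complex partner Crtap fell by 0.52 (SE 0.038, limma adjusted p = 1.88e-13). Colgalt1, which adds galactose to the hydroxylysines that Plod enzymes make, rose to 555 CPM in Zfx F5 against 356 CPM in WT (0.64, SE 0.030, limma adjusted p = 2.82e-18). Fkbp14, a peptidyl-prolyl isomerase gene, fell by 1.01 (SE 0.121), and Tmem38b, an ion channel gene whose loss impairs collagen hydroxylation in humans, rose by 0.62 (SE 0.122). The collagen chaperone gene Serpinh1 differed by 0.08 (SE 0.028, limma adjusted p = 0.0123) with overlapping groups, and did not pass without Zfx F5 library 1 or 3 or WT library 3 (adjusted p 0.0544 to 0.101).

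Genes for procollagen export and trimming went both ways. Of 9 kept, 4 rose, 2 fell and 3 did not pass, beside 37.0% higher and 35.9% lower over all kept genes. Their median log2 difference was 0.04. Bmp1, the protease that cuts both procollagen and the Lox proenzyme, stood at 67.8 ± 1.6 CPM in Zfx F5 and 58.5 ± 2.9 CPM in WT (SD, n = 3 each, log2 difference 0.21, SE 0.047, limma adjusted p = 0.000151). Its enhancers Pcolce2 and Pcolce rose by 0.64 (SE 0.049) and 0.57 (SE 0.040). Adamts14, an aminopropeptidase gene, fell by 0.67 (SE 0.041), and the related Adamts2 and Adamts3 had 0 reads in all libraries.

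**Figure D4:**
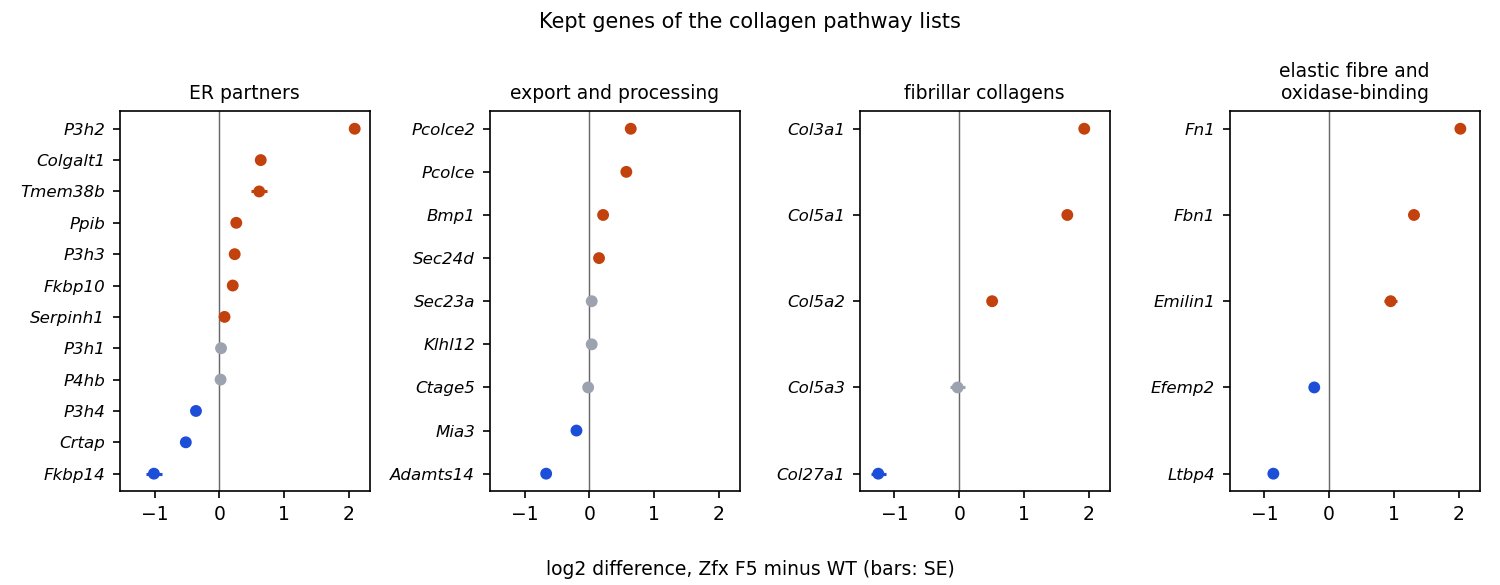
Log2 differences (Zfx F5 minus WT, bars give the SE) of the kept genes of 4 lists of the collagen pathway, with genes that rose in orange, genes that fell in blue and genes that did not pass the limma threshold in grey. P3h2, Col3a1, Col5a1, Fn1 and Fbn1 lie above 1, Fkbp14 and Col27a1 lie below -1, and most partners lie between.

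Few substrate genes were above the filter. Of 12 fibrillar collagen and elastin genes 5 were kept, of which 3 rose, 1 fell and 1 did not pass (median log2 difference 0.51). For all kept genes the shares were 37.0% higher and 35.9% lower. Col3a1 and Col5a1 rose 3.82-fold and 3.18-fold, Col5a2 rose 1.42-fold and Col27a1 fell 2.38-fold (SE 0.027, 0.035, 0.038 and 0.112 on the log2 scale, limma adjusted p = 1.05e-31, 4.84e-27, 2.44e-13 and 1.17e-10). The genes of type I collagen, a main substrate of Lox, were below the filter. Col1a2 had 249 reads over the libraries labelled Zfx F5 and 6 over WT, which made pooled CPM 43.3 times as high (exact 95% interval for counting error, 19.6 to 119). Col1a1 had 60 reads over the libraries labelled Zfx F5 and 12 over WT, a ratio of 5.22 (2.78 to 10.7). Elastin itself, Eln, had 1 read over the Zfx F5 libraries and 0 over WT.

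Fibrillar collagen genes summed to 669.8 ± 14.2 CPM per kb in Zfx F5 and 189 ± 4 CPM per kb in WT (SD, n = 3 each), 3.54 times as much. Per 100 units of that sum, Lox stood at 5.73 ± 0.10 units in Zfx F5 and 1.14 ± 0.13 in WT. The hydroxylases went the other way: P4ha1 stood at 13.7 ± 0.7 units in Zfx F5 and 45.8 ± 1.7 in WT, Plod3 at 10.8 ± 0.2 in Zfx F5 and 27.7 ± 0.9 in WT, Plod2 at 8.51 ± 0.28 in Zfx F5 and 19.6 ± 1.0 in WT, and Plod1 at 5.22 ± 0.13 in Zfx F5 and 8.41 ± 0.27 in WT. Col3a1 supplied 89.5 ± 0.1% of the collagen sum in Zfx F5 and 83.1 ± 0.2% in WT. Without it, a choice made after seeing the data, the sum was 70.5 ± 2.0 CPM per kb in Zfx F5 and 32.0 ± 0.5 CPM per kb in WT, 2.20 times as much. Plod1 then stood at 49.6 ± 1.2 units per 100 in Zfx F5 and 49.7 ± 1.5 in WT, with overlapping groups, so its lower value relative to fibrillar collagen rests on Col3a1. P4ha1, Plod3 and Plod2 were still lower in Zfx F5 by this measure, at 0.481, 0.630 and 0.698 times the WT value, and Lox was 8.12 times as high.

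Proteins that bind lysyl oxidases or organise elastic fibres were mostly below the filter. Of 13 genes 5 were kept, of which 3 rose and 2 fell, beside 37.0% higher and 35.9% lower over all kept genes. The median log2 difference of the 5 was 0.95. Fn1, whose product fibronectin binds Lox and aids its activation, rose 4.08-fold to 7058 ± 524.5 CPM in Zfx F5, against 1730 ± 103 CPM in WT (SD, n = 3 each, log2 SE 0.075, limma adjusted p = 6.20e-06). Fbn1, the main microfibril gene, rose 2.48-fold (log2 SE 0.076, limma adjusted p = 7.42e-06), and Emilin1 rose by 0.95 (SE 0.096). Ltbp4 fell by 0.86 (SE 0.062) and Efemp2, which brings Lox to elastin, fell by 0.23 (SE 0.037, limma adjusted p = 1.99e-06).

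The kept genes whose profile over the 6 libraries was nearest to that of Lox were Oasl2, Rsad2, Sorcs2, Ifit3 and Ifit1. Euclidean distances between log2 profiles centred on their own means were 0.362, 0.363, 0.381, 0.438 and 0.514, and Pearson r lay between 0.997 and 0.999. The 6 libraries fall into 2 groups, so r mostly reflects the difference between them. A small distance likewise requires a log2 difference near that of Lox, so these genes were picked largely by the size of that difference. Whether they share more with Lox than a similar difference between the groups was not tested. Rsad2, which encodes the antiviral enzyme viperin, averaged 49.3 ± 0.8 CPM in Zfx F5 and 3.28 ± 0.34 CPM in WT, and Sorcs2, a sorting receptor gene, 88.4 ± 1.8 CPM in Zfx F5 and 5.90 ± 0.44 CPM in WT (SD, n = 3 each). Oasl2, Ifit3 and Ifit1 are antiviral genes as well and stood at 25.3, 12.8 and 36.5 CPM in Zfx F5 against 1.21, 0.794 and 1.59 CPM in WT.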

How the data were processed

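The authors deposited 1 table of log2 values for 6 libraries. No source names its unit. The lowest value, -4.82, is the same in each library, and columns sum to 1000000 once the log2 is undone and that floor subtracted, so the deposited values were read as log2(CPM + 0.0353). CPM steps gave whole reads for 100% of values up to 300 reads, within 0.05 read. The aligner and counter were not given in the sources used here, and the submitters' processing notes list mm10 and GRCh38. The deposited size column equals the summed exon length and gave CPM per kb.

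limma 3.58.1 (R 4.3.3) was fitted to the 12279 genes with a mean log2 value of at least 0, with group as the only term, using the trend and robust options. Tests were 2-sided, and p-values were adjusted by Benjamini-Hochberg (threshold 0.05). Differences are Zfx F5 minus WT, and the offset understates those of genes with few reads. The script was tested on simulated data. Members and lists were chosen with earlier results of these data known. All members were named, Zfx, the genes nearest to Lox by profile, the kept neighbours of Lox, and from each list up to 4 genes past the threshold with groups apart, by size; P3h1, P4hb, P4ha3, Crtap, Serpinh1, Slc31a1, Atp7a, Efemp2, Hif1a, Egln2, Col1a1, Col1a2, Eln, Epas1, Adamts2, Adamts3 and the genes that overlap members were added after their values were seen. Gene positions and transcripts are from GENCODE M21. Of the listed genes, Mia2 matched no row by that symbol. There were 0 unused sample columns.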

Additional observations from a re-analysis of the deposited data

How the results depend on the processing

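Alternatives were 1 CPM added in place of the offset, no filter, a mean log2 value of at least 2, median centring, no trend or robust moderation, each library left out in turn, and, chosen after seeing the data, limma voom on the recovered reads. The planned edgeR fit was not run, since the deposited values are not counts. No paired analysis was possible because the labels give no replicate numbers. Counts of higher and lower genes, over all kept genes, in each list and among the neighbours, stayed within 1.5 times their value under each alternative, with 3 exceptions. Without a filter 5 fibrillar collagen genes were higher and 3 lower, and 5 elastic fibre or oxidase-binding genes were higher, because all listed genes with reads entered the test. The calls of Atp7a, Serpinh1 and Slc31a1 also ended without trend or robust moderation (adjusted p 0.145, 0.144 and 0.0802), and that of Atp7a with median centring (0.0884); the cause was not tested. The 8 kept members held their direction. The log2 difference of Lox was 4.04 and that of Loxl3 1.41 with 1 CPM added, and that of Plod1 1.16 with median centring. Without length scaling, Lox supplied 88.7% of the lysyl oxidase sum in Zfx F5 and 33.2% in WT. Loxl1 and Loxl2 are limited by depth.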

Other observations

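The kept genes nearest to the members on the chromosome moved both ways. Of the 20 nearest kept neighbours, 8 rose, 8 fell and 4 did not pass in limma (median log2 difference 0.03, against 0.02 for all kept genes). Limma called 37.0% of all kept genes higher and 35.9% lower. The nearest kept genes on either side of Lox were Srfbp1 and Snx2, with starts 50.4 kb and 660.2 kb from that of Lox. Srfbp1, a cofactor gene of serum response factor, rose by 0.70 on the log2 scale (SE 0.050, limma adjusted p = 9.55e-14). Snx2, a sorting nexin gene, fell by 0.26 (SE 0.046, limma adjusted p = 7.87e-06).

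Pdlim4, chosen after its values were seen, lies beside P4ha2, with starts 45.2 kb apart, and encodes an actin-associated LIM protein. It had 1.23, 0.759 and 0.659 CPM in the libraries labelled Zfx F5 and 13.1, 13.4 and 11.9 CPM in WT. The log2 difference was -3.85 (SE 0.181), with a limma adjusted p of 1.48e-16, while P4ha2 stood nearly level.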
